A study of Rattus norvegicus with 24 samples.

Results

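The proteasome is the cell's main machine for degrading proteins tagged with ubiquitin, and 27 of the 15507 genes on the array were genes of its subunits and close helpers. They were chosen by name alone, as every gene whose array symbol begins with Psma, Psmb, Psmc, Psmd, Psme, Psmf or Psmg, and no probe carried a Psmf or Psmg symbol. The 27 genes were measured with 42 probes, and all 27 stayed among the 11598 genes tested after dim probes were left out. They comprised 9 subunits of the 20S core (5 alpha and 4 beta), 12 of the 19S regulator (5 ATPases and 7 other subunits), 4 immune subunits, the assembly factor Psmd10 and the activator Psme4. The 9 core and 12 regulator subunits are called the 21 constitutive subunits below.

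The rats were male F344, an inbred strain, 4 weeks old when bought and 5 weeks old per the sample labels. All were dosed by daily gavage at 5 ml/kg for 28 days, 4 rats per compound, and liver RNA was measured. The daily dose of hexachloroethane was 500 mg/kg and that of 1,2,3-trichloropropane 50 mg/kg. For 1-amino-2-methylanthraquinone it was 150 mg/kg. For the weedkiller 3-(4-chlorophenyl)-1,1-dimethylurea, called monuron below, it was 250 mg/kg. These 4 are the carcinogens of the design. The 2 non-carcinogens were 1,2-dichlorobenzene (daily dose 300 mg/kg) and the antibiotic tetracycline hydrochloride (daily dose 1000 mg/kg). The vehicle was water for tetracycline hydrochloride and corn oil for the rest. Each of 24 Agilent arrays carried Cy3-labelled RNA of 1 treated rat and a Cy5-labelled RNA pool of vehicle controls, with no dye swap. A pool counts as 1 control sample and its own spread enters no test. No slide held more than 1 compound, and the effects of slide and compound therefore cannot be told apart. Hexachloroethane and tetracycline hydrochloride were scanned on day 1 of 4 scan days, 1-amino-2-methylanthraquinone on day 2, 1,2,3-trichloropropane on day 3, and monuron and 1,2-dichlorobenzene on day 4.

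The 20S core is a barrel of stacked rings, in which outer rings of alpha subunits gate the entrance and inner rings of beta subunits hold the cutting sites. The 19S regulator caps the barrel, recognises ubiquitin chains, and unfolds the substrate with a ring of ATPases. Interferon swaps catalytic beta subunits for immune versions such as Psmb8 and Psmb9 and raises Psme1 and Psme2, the subunits of the PA28 activator, which changes the peptides available for antigen presentation. The constitutive subunit genes are known to be transcribed together through Nfe2l1, and Nfe2l2 (Nrf2) is able to raise several of them. In the liver the complex removes damaged and short-lived proteins, among them many drug-metabolising enzymes.

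A few sequences are given first, because they show what the readings rest on and what lies before some of the genes described below. Psmb8, the immune subunit with opposite readings under 2 compounds, was read by 1 probe under its symbol and by a separate probe that the array lists under a RefSeq record of the gene. Both lie in the coding region, are 60 bases long, and share no stretch over 5 bases, so they are separate readings of the transcript:
Psmb8, probe under the symbol: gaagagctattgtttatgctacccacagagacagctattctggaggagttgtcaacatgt
Psmb8, probe under the RefSeq record: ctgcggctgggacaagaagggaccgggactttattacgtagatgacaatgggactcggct
Among all probes, the longest stretch shared by probes of different genes of the group was 10 bases. The 2 probes of Psmb9 are the same 60-mer and those of Psmd2 overlap over 59 bases, so agreement within these pairs tells only of the spots.

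Promoter windows came from RefSeq (build GRCr8), which held 26 of the 27 genes, with no entry for Psma7. Each window ran from 250 bases before to 50 bases after the start of transcription. It was searched on both strands for TGACNNNGC (the core of the antioxidant response element, bound by Nrf1 and Nrf2), CCAAT (the NF-Y box) and GAAANNGAA (the interferon-stimulated response element). No matches of different motifs overlapped in these 26 windows. The stretch from 250 bases before to 10 after the start is printed for 3 constitutive genes with high readings under hexachloroethane and for the immune pair Psmb8 and Psmb9, with matches in capitals:
Psmd2, chr11:93763379-93763638, minus strand: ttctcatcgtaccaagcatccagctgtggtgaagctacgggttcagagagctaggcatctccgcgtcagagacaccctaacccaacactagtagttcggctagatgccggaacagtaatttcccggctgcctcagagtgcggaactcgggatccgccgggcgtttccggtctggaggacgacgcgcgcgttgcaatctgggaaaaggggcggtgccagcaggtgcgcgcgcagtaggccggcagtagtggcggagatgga
Psma5, chr2:198584255-198584514, plus strand: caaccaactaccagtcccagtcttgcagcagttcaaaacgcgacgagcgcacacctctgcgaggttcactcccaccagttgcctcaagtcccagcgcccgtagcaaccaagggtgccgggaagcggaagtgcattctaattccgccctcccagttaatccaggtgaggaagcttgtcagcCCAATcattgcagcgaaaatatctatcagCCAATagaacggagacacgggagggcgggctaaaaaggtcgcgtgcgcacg
Psmd1, chr9:94157721-94157980, plus strand: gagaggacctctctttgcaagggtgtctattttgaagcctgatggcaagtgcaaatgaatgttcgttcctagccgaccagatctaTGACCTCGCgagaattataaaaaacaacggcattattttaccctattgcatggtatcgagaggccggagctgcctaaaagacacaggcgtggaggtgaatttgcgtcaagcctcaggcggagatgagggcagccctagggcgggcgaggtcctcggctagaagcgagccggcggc
Psmb8, chr20:4657022-4657281, minus strand: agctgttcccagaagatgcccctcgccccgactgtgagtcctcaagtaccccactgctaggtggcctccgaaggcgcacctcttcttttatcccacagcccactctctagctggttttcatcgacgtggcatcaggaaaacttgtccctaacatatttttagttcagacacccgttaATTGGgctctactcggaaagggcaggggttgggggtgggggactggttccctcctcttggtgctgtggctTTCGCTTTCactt
Psmb9, chr20:4668750-4669009, plus strand: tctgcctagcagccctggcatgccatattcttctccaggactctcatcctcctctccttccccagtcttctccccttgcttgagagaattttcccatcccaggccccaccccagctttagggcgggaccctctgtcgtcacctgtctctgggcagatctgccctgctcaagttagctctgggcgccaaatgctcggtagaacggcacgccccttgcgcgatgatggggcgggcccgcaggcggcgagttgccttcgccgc
The Psma5 stretch holds CCAAT 70 and 41 bases before the start, and that of Psmd1 holds TGACCTCGC 165 bases before it. The Psmb8 stretch holds the NF-Y box on the other strand (ATTGG) 73 bases before the start and TTCGCTTTC (the interferon element on the other strand) beginning 3 bases before it. The printed stretches of Psmd2 and Psmb9 hold no match. Psmb9 and Tap1, a peptide transporter subunit, face away from each other, and their windows share 44 bases on opposite strands. Over the 26 windows, CCAAT was found in 12, against 37.5% of all 33469 promoters in the table, and the antioxidant core in 4, against 12.1%. The interferon element was found in 4 windows, against 9.71% of all promoters. Of the 4 immune genes, 2 held the interferon element (Psmb8 and Psme2), 2 CCAAT and 0 the antioxidant core. These are matches of letters and say nothing about binding.

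Values are given as the mean log2 ratio (treated over vehicle) ± SD of 4 rats (n = 4), scaled by loess within each array. Calls are at 0.05 on p-values from limma adjusted over all genes tested by the method of Benjamini and Hochberg, and rises and falls refer to called genes alone. Per array, 59.7 to 71.7% of probes exceeded background clearly with the treated dye and 64.2 to 75.9% with the vehicle dye. The proteasome genes are bright: 40 of their 42 probes lay well above background in both channels on all 24 arrays, none was saturated, and their median log2 signal was 13.6 against 9.23 for all genes tested. A log2 signal of at least 12 was reached by 24 of the 27, against 17.7% of all genes tested. Brightness matters here because loess sets the ratio to 0 on average at each level of signal. With arrays centred on their median in its place, the median of bright genes lay between -0.78 and -0.47 for the 6 compounds, and most signs against vehicle turned. Without a dye swap, a dye effect on bright spots and a difference of bright genes from vehicle cannot be told apart. With loess the median of bright genes lay between -0.000023 and 0.013, so a sign against vehicle below is a difference from genes of like brightness. All 7 hepatocyte markers (Alb, Apoa1, Ttr, Serpina1, Tf, Fgb and Apoh) were measured, with 5 to 7 of them lower than vehicle under each compound and 0 higher, and their part in the results was not tested. In bulk liver, fewer cells of a type and less RNA per cell cannot be told apart.

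**Figure D1:**
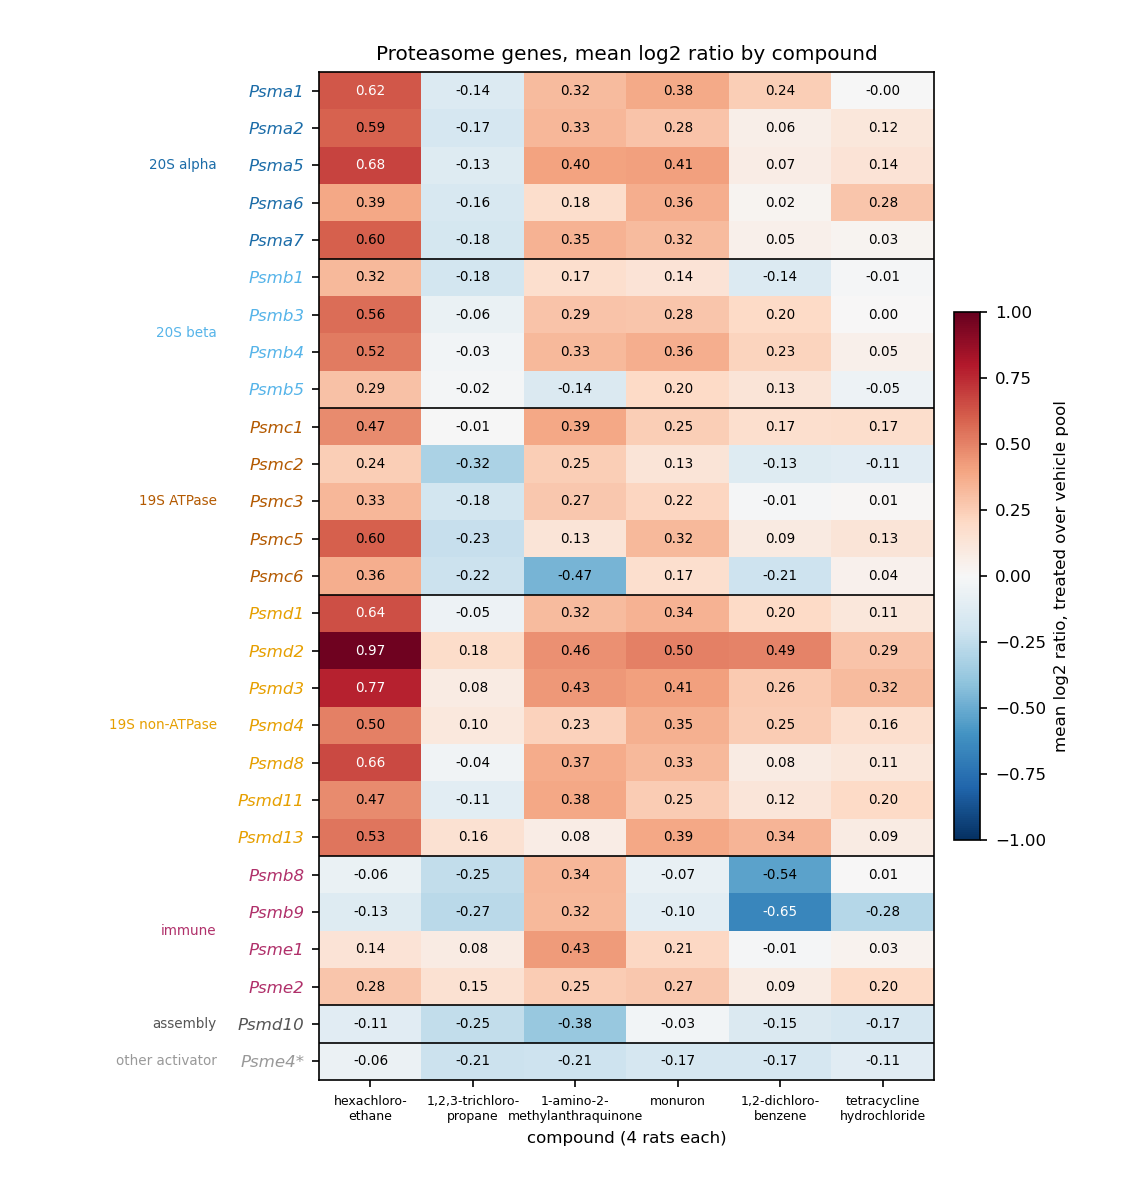
Heat map of the mean log2 ratio of treated over vehicle for the 27 proteasome genes (rows, grouped by role) under each of 6 compounds (columns, 4 rats each), with loess scaling. The 19S non-ATPase rows are positive under hexachloroethane, with Psmd2 at 0.97, the highest mean; Psme4, marked with a star, was too dim to give a level, and with median centring most signs turn.

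Over the 27 genes, 23 rose and 1 fell under hexachloroethane, where 18.2% of all genes tested rose and 24.2% fell. Under monuron the counts were 23 and 1 (background 19.7% and 25.6%), and under 1-amino-2-methylanthraquinone 21 and 4 (27.5% and 31.1%). Under 1,2,3-trichloropropane 3 rose and 13 fell (20.2% and 25.1%). For 1,2-dichlorobenzene the counts were 11 and 7 (25% and 26.6%) and for tetracycline hydrochloride 12 and 3 (14.4% and 21.3%). The 21 constitutive subunits were all higher under hexachloroethane and monuron, 18 higher and 2 lower under 1-amino-2-methylanthraquinone, 11 and 3 under 1,2-dichlorobenzene, 11 and 1 under tetracycline hydrochloride, and 2 and 10 under 1,2,3-trichloropropane. The medians of the 27 were 0.47 for hexachloroethane, 0.32 for 1-amino-2-methylanthraquinone, 0.28 for monuron, 0.080 for 1,2-dichlorobenzene, 0.051 for tetracycline hydrochloride and -0.13 for 1,2,3-trichloropropane. The medians of all genes tested lay between -0.022 and -0.010. These shifts were small in size: 0 of the 27 reached 2-fold under any compound, where 0.854% (hexachloroethane), 0.793% (1,2,3-trichloropropane), 1.91% (1-amino-2-methylanthraquinone), 1.26% (monuron), 1.39% (1,2-dichlorobenzene) and 0.216% (tetracycline hydrochloride) of all genes did with an adjusted p under 0.05. Without rat 2 the count for 1,2,3-trichloropropane was 10, and without rat 1 that for tetracycline hydrochloride was 9. The median SD of the 27 over 4 rats was 0.13 under 1-amino-2-methylanthraquinone, above the 0.099 of all genes tested. It was 0.077 against 0.073 under 1,2-dichlorobenzene and between 0.065 and 0.073 under the other 4 compounds, where all genes had 0.078 to 0.099.

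The alpha subunits of the 20S core, which form its gate, were higher than genes of like brightness under 3 of the carcinogens and lower under the fourth. All 5 (Psma1, Psma2, Psma5, Psma6 and Psma7) rose under hexachloroethane, under 1-amino-2-methylanthraquinone and under monuron, and all 5 fell under 1,2,3-trichloropropane. Only 1 rose under 1,2-dichlorobenzene and 3 under tetracycline hydrochloride, with none lower, and 1 of 5 is near the 25% of all genes that rose under 1,2-dichlorobenzene. Psma5 was 0.65, 0.74, 0.63 and 0.69 in the 4 hexachloroethane rats, a mean of 0.68 ± 0.046 (1.6-fold, limma adjusted p = 2.39e-10). It was 0.48, 0.40, 0.29 and 0.46 under monuron (0.41 ± 0.082, limma adjusted p = 2.82e-07). Its rats under 1,2,3-trichloropropane read 0.028, -0.19, -0.19 and -0.16 (-0.13 ± 0.10, limma adjusted p = 0.0235). The 3 groups of rats did not overlap, and 1 rat of the last group lay on the other side of 0. Psma6 was the largest of the alpha rises under tetracycline hydrochloride, at 0.32, 0.20, 0.29 and 0.30 (0.28 ± 0.053, limma adjusted p = 0.000749), with all 4 rats above 0. With median centring the Psma5 means were -0.059 under hexachloroethane and -0.22 under monuron, and that of Psma6 was -0.27, so these directions hold only beside genes of like brightness.

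The 4 constitutive beta subunits, which line the cutting chamber, went the same way as the alpha subunits under hexachloroethane and monuron. All 4 (Psmb1, Psmb3, Psmb4 and Psmb5) rose under hexachloroethane and under monuron, with medians of 0.42 and 0.24. Psmb3, a structural subunit of the inner ring, read 0.51, 0.60, 0.58 and 0.56 under hexachloroethane (0.56 ± 0.040). Psmb5, the chymotrypsin-like catalytic subunit that Psmb8 replaces in the immune core, read 0.28, 0.37, 0.27 and 0.24 there (0.29 ± 0.057, limma adjusted p = 8.04e-06). Under 1-amino-2-methylanthraquinone the other 3 rose, while Psmb5 read -0.015, -0.27, -0.11 and -0.19 (-0.14 ± 0.11, limma adjusted p = 0.00432). All 4 rats there were below 0, the first by little. Under 1,2,3-trichloropropane only Psmb1 passed the test, lower at -0.18 ± 0.039, with 4 of 4 rats below 0. Under 1,2-dichlorobenzene 3 rose and Psmb1 fell (-0.14 ± 0.048), and under tetracycline hydrochloride none was called.

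The ATPases of the 19S base form the ring that unfolds substrates, and under 1-amino-2-methylanthraquinone they were called in both directions. All 5 (Psmc1, Psmc2, Psmc3, Psmc5 and Psmc6) rose under hexachloroethane (means from 0.24 to 0.60) and under monuron (0.13 to 0.32), and 4 of 5 fell under 1,2,3-trichloropropane. Psmc5 read 0.57, 0.76, 0.54 and 0.53 under hexachloroethane and -0.12, -0.19, -0.28 and -0.33 under 1,2,3-trichloropropane. Both sets lay wholly outside the rats of the other 5 compounds, above and below in turn. A second Psmc5 probe, listed under an older symbol, read 0.58 ± 0.090 under hexachloroethane. Under 1,2,3-trichloropropane it read 0.042, -0.080, -0.16 and -0.20 (-0.10 ± 0.11, limma adjusted p = 0.136). That mean was not called and its rats overlapped with those of other compounds, so the fall of Psmc5 rests on 1 probe. Psmc2 had the largest fall of the 27 genes under 1,2,3-trichloropropane, at -0.22, -0.28, -0.34 and -0.42 (-0.32 ± 0.086, limma adjusted p = 5.75e-06). It was lower too under 1,2-dichlorobenzene (-0.13 ± 0.074) and tetracycline hydrochloride (-0.11 ± 0.072, limma adjusted p = 0.0408). The call under tetracycline hydrochloride was lost without rat 1 and without rat 2, and with the brightest probe alone (-0.046). Psmc6 read -0.51, -0.59, -0.14 and -0.63 under 1-amino-2-methylanthraquinone (-0.47 ± 0.22, limma adjusted p = 9.31e-07), where the other 4 ATPases rose. All 4 rats were below 0, with the third closer to 0 than the rest. That value rests on 1 probe, and a second probe, which the array names LOC310988 and the RefSeq table names Psmc6-ps2, a pseudogene name, read 0.19 ± 0.067 under the same compound.

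The 7 non-ATPase subunits of the 19S regulator (Psmd1, Psmd2, Psmd3, Psmd4, Psmd8, Psmd11 and Psmd13) included the 2 highest means of the 27 genes, those of Psmd2 and Psmd3 under hexachloroethane. All 7 rose under hexachloroethane (0.47 to 0.97) and under monuron (0.25 to 0.50). Under 1-amino-2-methylanthraquinone, 1,2-dichlorobenzene and tetracycline hydrochloride 6 of 7 rose, and under 1,2,3-trichloropropane 2 rose, with none lower under any compound. Psmd2, a scaffold subunit of the base that docks ubiquitin-handling proteins, read 0.84, 1.06, 0.98 and 0.99 under hexachloroethane, a mean of 0.97 ± 0.094 (1.96-fold, limma adjusted p = 7.44e-12). All 4 rats lay above the 20 rats of the other compounds. It was the only 1 of the 27 genes called higher under all 6 compounds, with 0.50 ± 0.093 under monuron, 0.49 ± 0.14 under 1,2-dichlorobenzene and 0.46 ± 0.12 under 1-amino-2-methylanthraquinone. Its readings were smaller under tetracycline hydrochloride (0.29 ± 0.066) and 1,2,3-trichloropropane (0.25, 0.18, 0.10 and 0.20; 0.18 ± 0.062, limma adjusted p = 0.00531). With median centring it was 0.10 under hexachloroethane (limma adjusted p = 0.319) and between -0.55 and -0.15 under the other 5.

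Psmd3, a lid subunit, was likewise highest under hexachloroethane and lowest under 1,2,3-trichloropropane, with 0.61, 0.88, 0.75 and 0.83 under hexachloroethane (0.77 ± 0.12, limma adjusted p = 2.35e-10). Under 1-amino-2-methylanthraquinone and monuron it was 0.43 ± 0.092 and 0.41 ± 0.096, under tetracycline hydrochloride 0.32 ± 0.061 and under 1,2-dichlorobenzene 0.26 ± 0.13. Under 1,2,3-trichloropropane it read 0.19, 0.12, -0.015 and 0.026, with no call. Psmd13, also of the lid, rose under 1,2-dichlorobenzene (0.38, 0.38, 0.35 and 0.25; 0.34 ± 0.065) and under 1,2,3-trichloropropane (0.24, 0.078, 0.17 and 0.14; 0.16 ± 0.065, limma adjusted p = 0.00785). All 8 of these rats were above 0, although the second call was lost without rat 1. With median centring Psmd3 read between -0.53 and -0.078 under the 5 compounds where it rose, and Psmd13 read -0.31 under 1,2,3-trichloropropane and -0.046 under 1,2-dichlorobenzene.

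**Figure D2:**
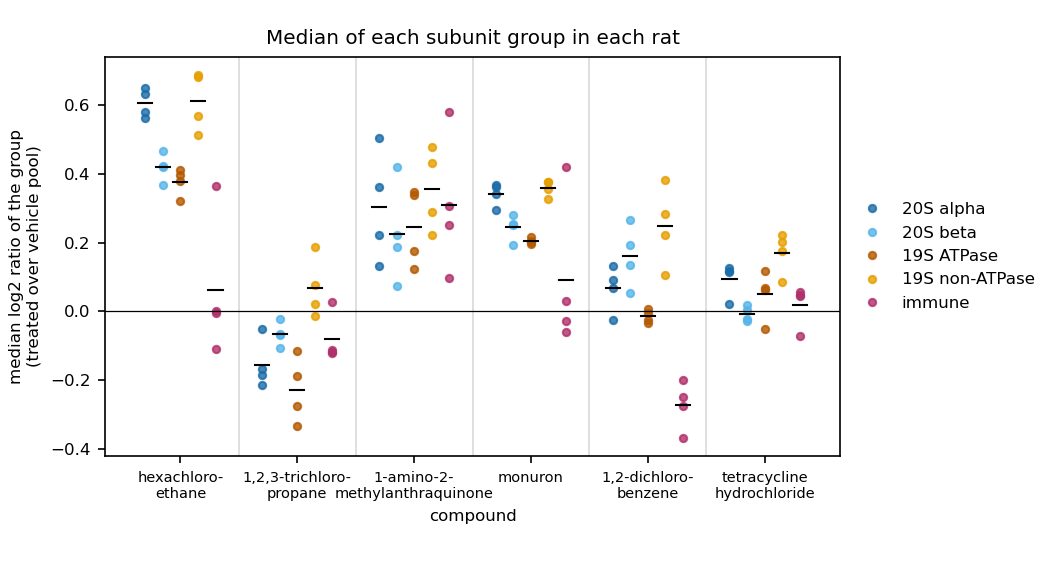
Median log2 ratio of treated over vehicle of each subunit group (colours) in each rat (points), by compound, with black bars at the mean of 4 rats, with loess scaling. For the alpha subunits the hexachloroethane rats lie between 0.56 and 0.65 and the 1,2,3-trichloropropane rats between -0.21 and -0.052; with median centring most signs turn.

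With median centring in place of loess, 15 of 16 called genes were lower under hexachloroethane, 26 of 27 under 1-amino-2-methylanthraquinone, tetracycline hydrochloride and 1,2,3-trichloropropane, 23 of 24 under monuron and 24 of 25 under 1,2-dichlorobenzene. The members' medians were then -0.23 (hexachloroethane), -0.33 (monuron), -0.41 (tetracycline hydrochloride), -0.44 (1,2-dichlorobenzene), -0.53 (1-amino-2-methylanthraquinone) and -0.71 (1,2,3-trichloropropane). Less the median of bright genes (log2 signal of at least 12, not matched gene by gene), however, they came to 0.47, 0.23, 0.084, 0.038, 0.25 and -0.10 in the same order. The loess values taken the same way were 0.47, 0.27, 0.041, 0.067, 0.32 and -0.13. The sign of the distance from bright genes was thus the same with both scalings, while most signs against the vehicle pool turned. Its size differed most for 1-amino-2-methylanthraquinone, and tetracycline hydrochloride and 1,2-dichlorobenzene changed places.

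**Figure D3:**
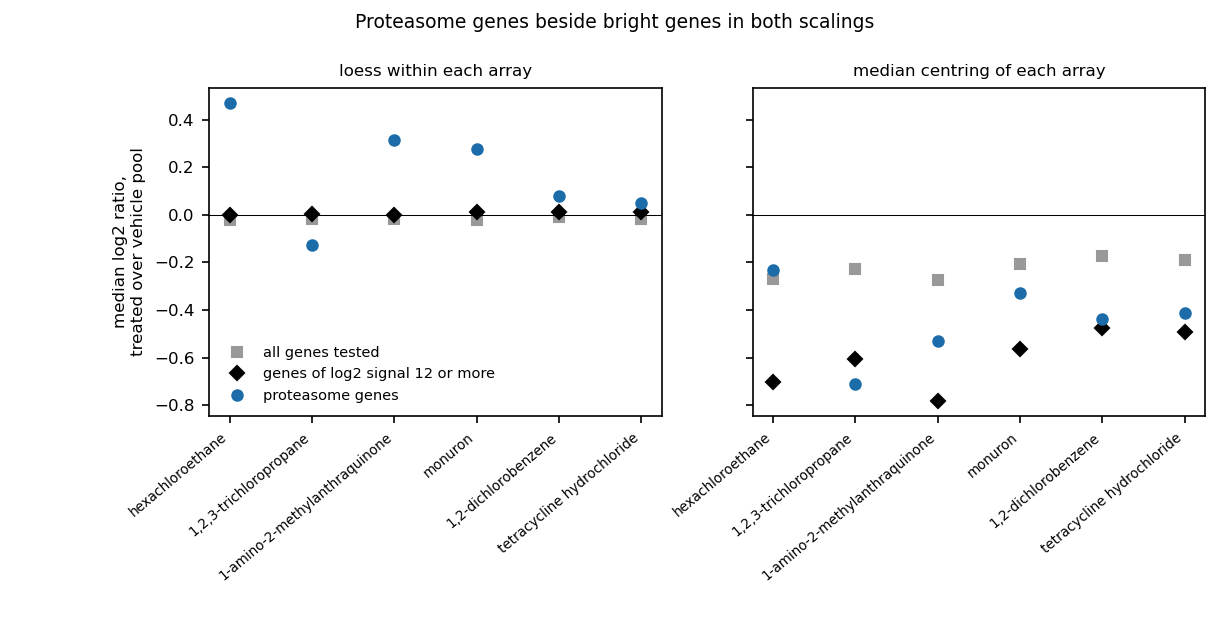
Median log2 ratio of the 27 genes, of bright genes (log2 signal of at least 12) and of all genes tested, by compound, with loess scaling and with median centring. With median centring the members' medians are all below 0, from -0.71 to -0.23, while the median of bright genes lies between -0.78 and -0.47.

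Each compound was next set against the mean of the other 5, a contrast in which a dye effect common to all arrays cancels but in which a difference between vehicle pools does not. The constitutive subunits stood highest under hexachloroethane and lowest under 1,2,3-trichloropropane. Hexachloroethane had 22 genes higher and 0 lower (background 12.9% and 15.1%), including all 21 constitutive subunits, by 0.25 to 0.58. The remaining gene was Psme4 (0.12, limma adjusted p = 0.0457), which was too dim in the treated channel to give a level. Under 1,2,3-trichloropropane 0 were higher and 19 lower (15.2% and 15.6%), all 19 constitutive, by a median of -0.36 over the 21. Psmb5 (-0.10, limma adjusted p = 0.0813) and Psmd13 (-0.13, limma adjusted p = 0.0518) were the 2 that were not called. With median centring 11 genes were called higher for hexachloroethane and 17 lower for 1,2,3-trichloropropane, with none called the other way.

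The ends of the order of compounds were shared by most constitutive subunits. Hexachloroethane had the highest mean for 20 of 21 and 1-amino-2-methylanthraquinone for 1, while 1,2,3-trichloropropane had the lowest for 18 and 1-amino-2-methylanthraquinone for 3. For 10 of them (Psma1, Psma2, Psma5, Psmb3, Psmc5, Psmc6, Psmd1, Psmd2, Psmd3 and Psmd4) all 4 hexachloroethane rats lay above all 20 others, as 1.01% of all genes did. For 5 (Psma2, Psmc3, Psmc5, Psmd1 and Psmd11) all 4 rats given 1,2,3-trichloropropane lay below all 20 others, as 1.19% of all genes did. The second probe of Psmc5 did not show this. Psma1 shows the spacing: 0.63, 0.66, 0.58 and 0.61 under hexachloroethane, 0.34, 0.42, 0.35 and 0.41 under monuron, 0.42, 0.11, 0.52 and 0.22 under 1-amino-2-methylanthraquinone, and 0.21, 0.35, 0.25 and 0.16 under 1,2-dichlorobenzene. It read 0.078, -0.053, 0.032 and -0.060 under tetracycline hydrochloride and -0.039, -0.24, -0.11 and -0.17 under 1,2,3-trichloropropane. The hexachloroethane rats stood clear of all others, while monuron, 1-amino-2-methylanthraquinone and 1,2-dichlorobenzene overlapped with each other, as did tetracycline hydrochloride and 1,2,3-trichloropropane.

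The other 4 compounds were closer to the average. 1-Amino-2-methylanthraquinone had 12 genes higher and 4 lower (background 24.3% and 23.8%), monuron 10 and 0 (11.4% and 11.3%), 1,2-dichlorobenzene 0 and 14 (17.5% and 13.5%), and tetracycline hydrochloride 0 and 14 (14.5% and 17.4%). These counts depended on the rats included and on the scaling. Leaving out a rat number took 1 rat from every compound at once, so dependence on a single rat was not tested. Monuron had 1, 5 and 1 without rats numbered 2, 3 and 4 of each compound, 1,2-dichlorobenzene 9, 8 and 4, and tetracycline hydrochloride 7, 9 and 9. With median centring they were 7 (all lower) for 1-amino-2-methylanthraquinone, 1 for monuron and 0 for both 1,2-dichlorobenzene and tetracycline hydrochloride.

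**Figure D4:**
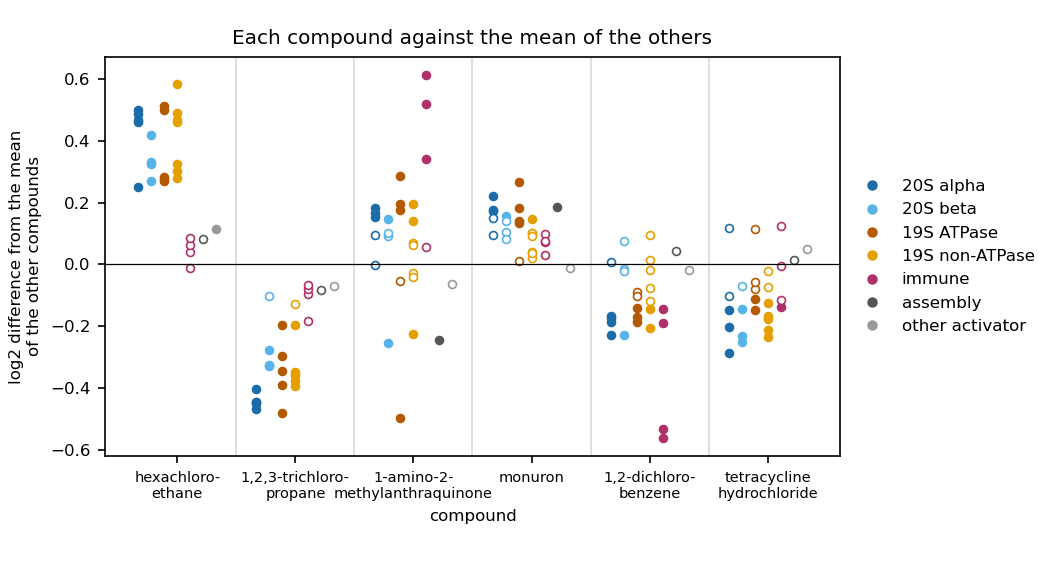
Log2 difference of each compound from the mean of the other 5 for the 27 genes (points, coloured by role), with loess scaling; filled points passed the test at an adjusted p under 0.05 (limma) and open points did not. Hexachloroethane has 22 filled points above 0 and 1,2,3-trichloropropane 19 below 0.

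Pairs of compounds scanned on the same day were compared directly. Hexachloroethane exceeded tetracycline hydrochloride in 20 genes, all constitutive, and was lower in 0 (background 8.24% and 8.68%). The widest gap was that of Psmd2, 0.68 with a standard error of 0.070 (limma adjusted p = 1.39e-06), and Psma6 was the 1 constitutive subunit not called (0.11, limma adjusted p = 0.386). Monuron exceeded 1,2-dichlorobenzene in 13 genes, 10 constitutive and 3 immune, and was lower in 0 (background 10.4% and 13.2%). Psmd2 did not differ detectably there (0.0064, standard error 0.070), while Psmc6 (0.38, limma adjusted p = 0.00235) and Psma5 (0.34, limma adjusted p = 0.000475) did. With median centring 0 of the 27 were called in either pair. The vehicle of the first pair also differed, water against corn oil, and cannot be told apart from the compound.

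The design's own grouping, 4 carcinogens against 2 non-carcinogens, called 0 of the 27 and 0% of all genes with limma and compound as a random block. At an unadjusted p under 0.05 it marked 1 of the 27 and 201 of all genes. The median of the 21 constitutive subunits was 0.16 higher in the carcinogens, and the means of hexachloroethane (0.53 as a median over the 21) and 1,2,3-trichloropropane (-0.11) lay on opposite sides within that class.

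Of the 4 immune subunits, 3 were called higher under 1-amino-2-methylanthraquinone and all 4 lower under 1,2-dichlorobenzene against the other 5 compounds. Psmb8 and Psmb9, the interferon-inducible catalytic subunits encoded beside the peptide transporter genes Tap1 and Tap2, were higher than under the other compounds with 1-amino-2-methylanthraquinone and lower with 1,2-dichlorobenzene. Psmb8 read 0.73, 0.23, 0.10 and 0.28 under 1-amino-2-methylanthraquinone (0.34 ± 0.27, limma adjusted p = 0.00278). It read -0.52, -0.49, -0.52 and -0.63 under 1,2-dichlorobenzene (-0.54 ± 0.062, limma adjusted p = 3.48e-05). All 4 of the latter lay below the 20 rats of the other compounds, as for 0.707% of all genes. The probe under the RefSeq record gave 0.34 and -0.43 for the same compounds. Psmb9 read 0.68, 0.26, 0.021 and 0.33 under 1-amino-2-methylanthraquinone (0.32 ± 0.27, limma adjusted p = 0.0521) and -0.67, -0.46, -0.63 and -0.84 under 1,2-dichlorobenzene (-0.65 ± 0.16, limma adjusted p = 0.00057). The ranges of the 2 compounds did not overlap for either gene. Without rat 1 the Psmb8 mean under 1-amino-2-methylanthraquinone was 0.20 and not called.

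Against the other 5 compounds, 1-amino-2-methylanthraquinone was higher by 0.52 for Psmb8 (limma adjusted p = 0.000164) and 0.61 for Psmb9 (0.00244). 1,2-Dichlorobenzene was lower by -0.53 (limma adjusted p = 0.000311) and -0.56 (0.0085). With median centring the 4 signs held but no call did: 0.24 and 0.33 for 1-amino-2-methylanthraquinone (limma adjusted p = 0.193 and 0.156), and -0.37 and -0.41 for 1,2-dichlorobenzene (0.0559 and 0.0952). Against vehicle with that scaling, Psmb8 under 1-amino-2-methylanthraquinone was -0.55. In the other compounds single rats stood apart. Under monuron Psmb9 read 0.56 in rat 1 and -0.29, -0.36 and -0.32 in the others, and Psmb8 read 0.26 against -0.092, -0.23 and -0.23. Under hexachloroethane rat 3 had 0.45 for Psmb9 and 0.29 for Psmb8, while the other 3 rats were between -0.47 and -0.11 for both. The same rats were high in other interferon genes, named here after their values were seen: Tap1 was 0.65 in monuron rat 1 and 0.70 in hexachloroethane rat 3, with Gbp2 at 1.31 and 0.53. Under 1,2,3-trichloropropane Psmb8 was -0.25 ± 0.070 (limma adjusted p = 0.0261), a call lost without rat 1, 2 or 3. Its probe under the RefSeq record read -0.14 ± 0.071 there and was not called (limma adjusted p = 0.194). Psmb9 was -0.27 ± 0.11 under that compound with no call. Under tetracycline hydrochloride Psmb8 was 0.0078 ± 0.095 and Psmb9 -0.28 ± 0.25, neither called.

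The PA28 subunits Psme1 and Psme2, open the core's gate without ATP. Against the other 5 compounds both were lower under 1,2-dichlorobenzene, Psme1 by -0.19 (limma adjusted p = 0.00292) and Psme2 by -0.14 (limma adjusted p = 0.0491). Psme1 read 0.48, 0.48, 0.31 and 0.45 under 1-amino-2-methylanthraquinone (0.43 ± 0.078, limma adjusted p = 2.01e-08), and was 0.34 above the other 5 compounds (limma adjusted p = 2.92e-06). It rose under monuron (0.21 ± 0.12) and hexachloroethane (0.14 ± 0.067, a call lost without rat 3 and with the brightest probe alone), and read between -0.014 and 0.080 under the other 3. Psme2 rose under 5 compounds, from 0.15 ± 0.047 under 1,2,3-trichloropropane to 0.28 ± 0.11 under hexachloroethane, and was 0.086 ± 0.087 under 1,2-dichlorobenzene with no call. The rise under 1,2,3-trichloropropane was lost without rat 1, 2 or 4 and in the series table. A Psme2 probe under a RefSeq record was called higher there (0.18 ± 0.049, limma adjusted p = 0.00464). It was called higher under 1,2-dichlorobenzene too (0.12 ± 0.080, limma adjusted p = 0.0324), so the lack of a call there depends on the probe. For Psme2 all means against vehicle were below 0 with median centring, from -0.68 to -0.33.

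**Figure D5:**
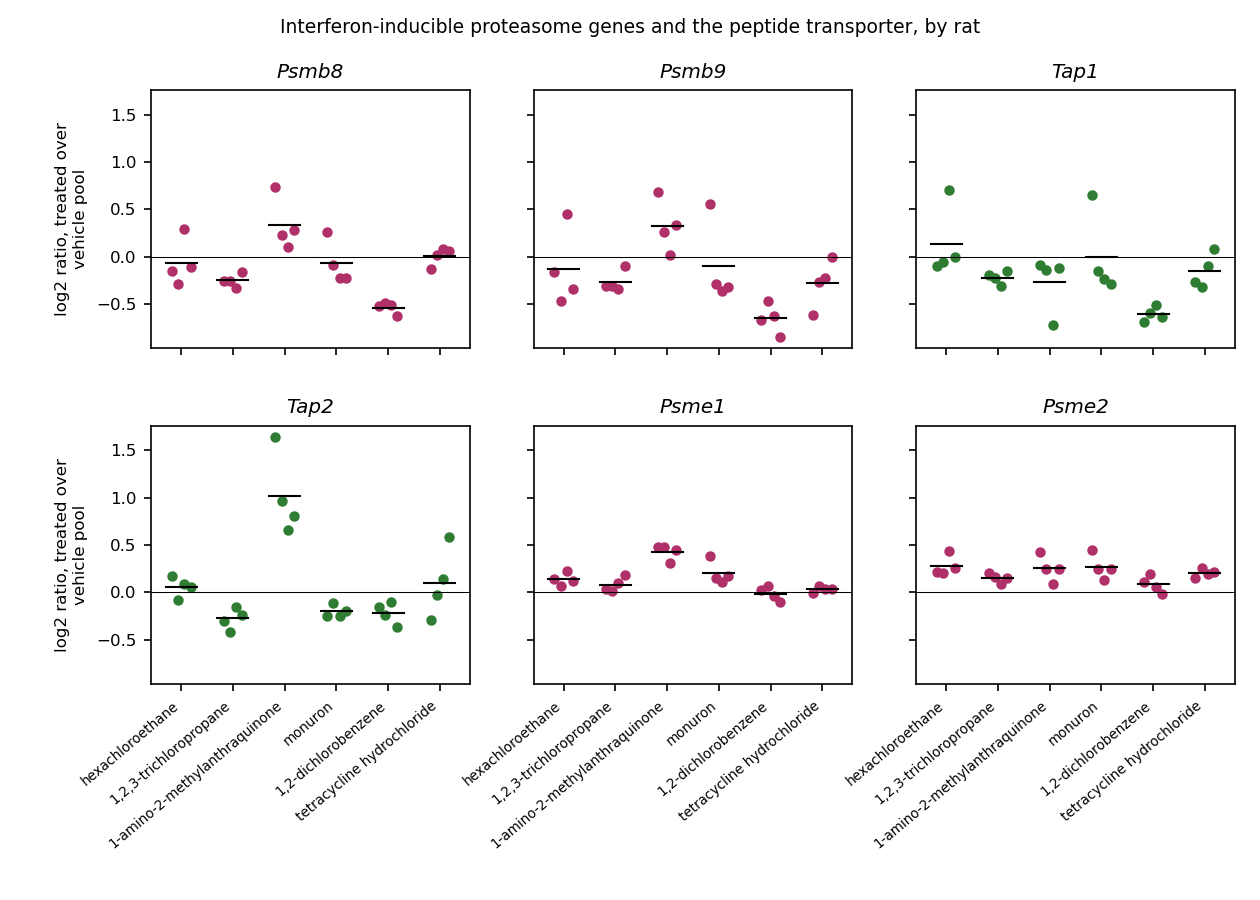
Log2 ratio of treated over vehicle in each rat (points, 4 per compound, bars at the mean) for Psmb8, Psmb9, Psme1, Psme2 and the peptide transporter genes Tap1 and Tap2, with loess scaling. Psmb8 lies between -0.63 and -0.49 in the 1,2-dichlorobenzene rats and between 0.10 and 0.73 in those given 1-amino-2-methylanthraquinone; with median centring the latter mean was -0.55.

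Other interferon and antigen presentation genes fell with Psmb8 and Psmb9 under 1,2-dichlorobenzene. Of 20 such genes measured, 0 rose and 12 fell under 1,2-dichlorobenzene (median -0.38), where 25% of all genes rose and 26.6% fell. Among the 12 were the GTPase Gbp2 (-0.77 ± 0.13) and the transporter subunit Tap1 (-0.61 ± 0.076). Under 1-amino-2-methylanthraquinone 7 rose and 3 fell (median 0.050), a share of rises near the 27.5% of all genes there. Tap2 read 1.64, 0.96, 0.65 and 0.80 there (1.01 ± 0.43, limma adjusted p = 2.41e-07), whereas Tap1, its partner in the transporter, read -0.091, -0.14, -0.72 and -0.12 (-0.27 ± 0.30) with no call. Cd74, the chaperone of class II molecules, rose to 0.59 ± 0.34 and RT1-A2, a class I gene, to 0.36 ± 0.23. The remaining compounds had 2 higher and 3 lower (hexachloroethane), 0 and 3 (1,2,3-trichloropropane), 2 and 4 (monuron) and 0 and 4 (tetracycline hydrochloride). These shares were below those of all genes, of which 14.4 to 20.2% rose and 21.3 to 25.6% fell under these compounds. With median centring the median of the 20 was below 0 for all 6 compounds, from -0.72 under 1,2-dichlorobenzene to -0.41 under tetracycline hydrochloride.

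Markers of other cells were read too, and their part in the immune readings was not tested. Under the 6 compounds 14.4 to 27.5% of all genes tested rose and 21.3 to 31.1% fell, so 1 or 2 called markers of 6 are near the background. Of 6 Kupffer cell and macrophage markers (Cd163, Clec4f, Marco, Csf1r, C1qb and Lyz2), 5 fell and 0 rose under 1,2-dichlorobenzene, with medians per rat from -0.83 to -0.23. Under 1-amino-2-methylanthraquinone 0 were called (-0.042 to 0.13), as under hexachloroethane (-0.59 to 0.19) and tetracycline hydrochloride (-0.19 to 0.053). Under 1,2,3-trichloropropane 3 fell (-0.55 to -0.088), and under monuron 3 rose and 1 fell (0.066 to 0.64). Of 6 lymphocyte markers (Cd3d, Cd3g, Cd4, Cd79b, Ptprc and Ccl5), 3 fell under 1,2-dichlorobenzene, 4 under hexachloroethane, 2 under monuron and 1 under tetracycline hydrochloride, 3 rose under 1,2,3-trichloropropane, and 1 rose and 1 fell under 1-amino-2-methylanthraquinone. Medians of the lymphocyte markers per rat lay between -0.13 and -0.029 under 1,2-dichlorobenzene and between -0.049 and 0.18 under 1-amino-2-methylanthraquinone. A further 4 listed Kupffer cell and 6 listed lymphocyte markers were not among the genes tested. Of 4 stellate cell markers 3 rose under 1-amino-2-methylanthraquinone and 3 fell under 1,2-dichlorobenzene, and all 3 bile duct markers rose under the former (median 1.40).

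Against vehicle, neither the assembly factor Psmd10 nor the nuclear activator Psme4 was called higher under any compound. Outside the naming rule, a probe under a RefSeq record of the assembly factor Psmd9 was not called higher either. Such a probe of the activator Psme3 was higher under 1-amino-2-methylanthraquinone (0.11 ± 0.053, limma adjusted p = 0.0105) and lower under hexachloroethane, monuron and tetracycline hydrochloride. Psmd10 (gankyrin), a chaperone that assembles the 19S base and is known as an oncoprotein of liver tumours, fell under 5 compounds. Under monuron it was -0.025 ± 0.073 against vehicle and 0.19 above the other 5 compounds (limma adjusted p = 0.00499). It read -0.44, -0.31, -0.31 and -0.47 under 1-amino-2-methylanthraquinone (-0.38 ± 0.083, limma adjusted p = 9.69e-08), -0.15, -0.26, -0.35 and -0.24 under 1,2,3-trichloropropane (-0.25 ± 0.084), and -0.22, -0.12, -0.12 and -0.21 under tetracycline hydrochloride (-0.17 ± 0.054). All 12 of these rats were below 0. A second probe, listed under a RefSeq record of Psmd10, was also lower under 1-amino-2-methylanthraquinone (-0.25 ± 0.070, limma adjusted p = 1.18e-06) and hexachloroethane (-0.093 ± 0.091). It read -0.012 ± 0.014 under 1,2,3-trichloropropane, 0.0061 ± 0.030 under 1,2-dichlorobenzene and 0.00091 ± 0.044 under tetracycline hydrochloride. None of these was called, so the falls under these compounds rest on 1 probe. Psme4 (PA200), a nuclear activator, was well above background on 0 of 24 arrays in the treated channel and on 9 in the vehicle channel. It passed the brightness filter through the vehicle channel of the 4 hexachloroethane arrays alone, where vehicle was at least 1.03-fold higher, and neither its 5 calls in the lower counts nor its higher call against the other 5 gives a level.

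Among 15 genes with 2 probes were Psmb9 and Psmd2 with their shared bases, and Psmc2, whose probes share 37 bases. The median difference between the 2 probes lay between 0.063 and 0.12 by compound. The 2 probes had opposite signs for 7 of 15 genes under tetracycline hydrochloride, 5 under 1,2-dichlorobenzene, 3 under 1,2,3-trichloropropane, 1 under 1-amino-2-methylanthraquinone and 0 under hexachloroethane and monuron. The widest was that of Psmd13 under 1-amino-2-methylanthraquinone, where the probes read 0.34 and -0.19, followed by Psmd1 under tetracycline hydrochloride (0.32 and -0.092). Psma6 differed by 0.35 under hexachloroethane (0.56 and 0.21) and 0.34 under 1-amino-2-methylanthraquinone. For 8 genes there were further probes that the array lists under a RefSeq record or, for Psmc5, an older symbol, and 42 of their 48 values had the sign of the gene's own value, with a median absolute difference of 0.048. Those of Psmb9, Psma2, Psmd4, Psmc5 and Psme2 share 54, 47, 33, 28 and 25 bases in turn with a probe under the symbol. Their agreement is thus not that of separate readings. Those of Psmb8, Psmc1 and Psmd10 share no stretch over 5 bases.

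Genes that work with the proteasome were read from lists of their known roles. Under the 6 compounds 14.4 to 27.5% of all genes tested rose and 21.3 to 31.1% fell. Thus 1 called gene in a list of 4, 1 or 2 in a list of 8, or 3 in a list of 14, is near the background. Of 8 partners outside the naming rule, 4 rose and 0 fell under hexachloroethane, 6 and 1 under 1-amino-2-methylanthraquinone, 4 and 1 under monuron, 3 and 3 under 1,2-dichlorobenzene, 1 and 3 under tetracycline hydrochloride, and 1 and 3 under 1,2,3-trichloropropane. Usp14, a deubiquitinase docked on Psmd2, read 0.46, 0.59, 0.47 and 0.56 under hexachloroethane (0.52 ± 0.066) and -0.060, -0.043, -0.17 and -0.23 under 1,2,3-trichloropropane (-0.13 ± 0.091). These were the highest and lowest of its 6 means. Pomp, the assembly factor of the core, was highest under 1-amino-2-methylanthraquinone (0.48 ± 0.12). Txnl1, a thioredoxin bound to the 19S regulator, fell under 5 compounds, most under 1,2,3-trichloropropane (-0.62 ± 0.21) and 1,2-dichlorobenzene (-0.59 ± 0.069), and Adrm1, a ubiquitin receptor, fell under tetracycline hydrochloride (-0.56 ± 0.19).

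Of 9 listed regulators of these genes 4 were measured (Nfe2l2, Mafg, Mafk and Keap1), and Nfe2l1 was not among the genes tested. Of the 4, 1 rose under hexachloroethane, 3 under 1-amino-2-methylanthraquinone and 2 each under monuron and tetracycline hydrochloride. Under 1,2,3-trichloropropane and 1,2-dichlorobenzene 1 each rose, and 0 fell under any compound. Keap1, which holds Nfe2l2 in check, was 0.42 ± 0.059 under hexachloroethane and 0.39 ± 0.055 under 1-amino-2-methylanthraquinone. Nfe2l2 itself was 0.52 ± 0.39 under 1,2,3-trichloropropane and -0.033 ± 0.33, with no call, under hexachloroethane. Of 20 Nrf2 targets, 15 rose under 1,2-dichlorobenzene (median 0.74), 14 under monuron (0.38), 13 under hexachloroethane (0.38), 12 under 1-amino-2-methylanthraquinone (0.29), 8 under 1,2,3-trichloropropane (0.11) and 5 under tetracycline hydrochloride (0.075). Nqo1, a quinone reductase and classic Nrf2 target, was 2.38 ± 0.24 under 1,2-dichlorobenzene and 1.11 ± 0.18 under hexachloroethane. The part of these genes in the proteasome readings was not tested.

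Cytosolic chaperones, 10 measured, had 7 higher and 1 lower under hexachloroethane and 0 higher and 5 lower under 1,2,3-trichloropropane, with Hsp90aa1 at 1.05 ± 0.12 and -0.18 ± 0.20 (not called) in turn. The counts were 4 and 1 under 1-amino-2-methylanthraquinone, 6 and 1 under monuron, 4 and 2 under 1,2-dichlorobenzene and 3 and 2 under tetracycline hydrochloride. Of 14 genes of ER stress and ER-associated degradation, 3 rose and 1 fell under hexachloroethane, 3 and 5 under 1,2,3-trichloropropane, 2 and 8 under 1-amino-2-methylanthraquinone, 2 and 2 under monuron, 3 and 4 under 1,2-dichlorobenzene and 1 and 1 under tetracycline hydrochloride. For both lists the background was 18.2% higher and 24.2% lower under hexachloroethane, 20.2% and 25.1% under 1,2,3-trichloropropane, and 27.5% and 31.1% under 1-amino-2-methylanthraquinone. It was 19.7% and 25.6% under monuron, 25% and 26.6% under 1,2-dichlorobenzene, and 14.4% and 21.3% under tetracycline hydrochloride. With median centring the medians of the partner, regulator and chaperone lists were below 0 under all 6 compounds, and of the Nrf2 targets' only those of 1,2-dichlorobenzene (0.41) and monuron (0.064) stayed above 0.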

How the data were processed

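Liver RNA of 24 rats was read on two-colour arrays with 60-base probes in duplicate spots. Spot intensities were extracted and background-measured with Agilent Feature Extraction 9.1.3.1, per the file headers, and deposited unnormalised. The scanner's log10 ratio of red over green, after its own background and dye correction per the file headers, was an alternative. So was the deposited series table, whose log2 scale and direction (treated over vehicle) were found by comparison with the scanner ratios (r from 0.846 to 0.997; column medians from -0.010 to 0.077); how it was normalised and centred is not given in the sources used here. Aligners and genome builds do not apply to these arrays.

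Mean and background signals were corrected by normexp with an offset of 50 and normalised by loess within each array, with control spots at weight 0. Control and outlier spots were then left out, copies averaged and the ratio turned to treated over vehicle. Probes were kept (16085) if either channel was well above background in all 4 rats of some compound, and probes of a gene averaged (11598 genes). Means of 6 compounds were fitted with limma 3.58.1 in R 4.3.3 and p-values adjusted by Benjamini-Hochberg over all genes at 0.05; the class contrast had compound as a random block (correlation 0.577). The fit was tested on simulated data. The labels do not say that pools were shared or separate among the corn oil compounds, and p-values leave out the pools' own spread. The number of arrays limits the precision.

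The genes and all lists were chosen with earlier results of these data known. The text names every immune member, and per compound the 3 largest rises and 3 largest falls among called members with 1 sign on all 4 arrays; Psma1, Psmb1, Psmb3, Psmb5, Psmc5, single-rat values of Gbp2, and list genes past the 3 largest changes were named after their values were seen. Median centring, no background correction, the scanner ratio, the series table, the brightest probe, no filter, each compound's own spread, a 2-fold limit, constitutive subunits alone, a replicate block and each rat left out were tried; the distance from bright genes was added after seeing the data. Some results are not reported here.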

Additional observations from a re-analysis of the deposited data

Results flagged for a closer look

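Single rats stood apart from the other 3 of their compound in 3 of 50 gene and compound pairs examined, by a gap, as a share of the group's range, above Dixon's critical value for 4 samples. Chance alone marks about 1 in 20 such groups. Psmb9, an immune catalytic subunit, was 0.56 in 1 monuron rat while the others were between -0.36 and -0.29 (gap 0.927), and was -0.095 in 1 rat given 1,2,3-trichloropropane while the others were between -0.34 and -0.31 (gap 0.866). Psmd3, a lid subunit, was 0.23 in 1 tetracycline hydrochloride rat and between 0.34 and 0.36 in the others (gap 0.859).

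Psmb8, also an immune catalytic subunit, went opposite ways in every rat of 2 compounds: its mean was 0.34 under 1-amino-2-methylanthraquinone and -0.54 under 1,2-dichlorobenzene. The difference between these 2 compounds was not tested directly, and with median centring the first mean was -0.55.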

How the results depend on the processing

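Median centring in place of loess changed most results, and the other settings few. Leaving out rats aside, among recomputed counts of called genes 96 stayed within 1.5 times and in direction, 15 moved and 6 reversed. Among values of named genes 303 counted as unchanged, 32 reversed, 9 gained and 6 lost a call. A change of sign counted as a reversal only where at least 1 of the values compared was called. The 303 can therefore include changes of sign between uncalled values. Without rats 1, 2, 3 and 4 in turn a further 1, 4, 3 and 3 counts moved, and 5, 4, 2 and 2 named calls were lost, with 1 gained without rat 3. With median centring the genes called against vehicle were 16 (hexachloroethane), 27 (1,2,3-trichloropropane), 27 (1-amino-2-methylanthraquinone), 24 (monuron), 25 (1,2-dichlorobenzene) and 27 (tetracycline hydrochloride), with 1 higher in each, and the medians in that order were -0.23, -0.71, -0.53, -0.33, -0.44 and -0.41. Against the other 5 compounds 11 (hexachloroethane), 7 (1-amino-2-methylanthraquinone), 1 (monuron), 0 (1,2-dichlorobenzene) and 0 (tetracycline hydrochloride) were called, and 0 in both same-day pairs. Named genes that reversed against vehicle with median centring were Psma5 (hexachloroethane -0.059, monuron -0.22), Psma6 (tetracycline hydrochloride -0.27), Psmb8 (1-amino-2-methylanthraquinone -0.55, tetracycline hydrochloride -0.49), Psmb9 (1-amino-2-methylanthraquinone -0.51) and Psmd13 (1,2,3-trichloropropane -0.31, 1,2-dichlorobenzene -0.046). Psmd2 read -0.55 (1,2,3-trichloropropane), -0.15 (1,2-dichlorobenzene), -0.53 (1-amino-2-methylanthraquinone), -0.24 (monuron) and -0.30 (tetracycline hydrochloride). Psmd3 read -0.36 (1,2-dichlorobenzene), -0.53 (1-amino-2-methylanthraquinone), -0.078 (hexachloroethane), -0.33 (monuron) and -0.26 (tetracycline hydrochloride). Psme1 read -0.59 (1,2,3-trichloropropane), -0.47 (1-amino-2-methylanthraquinone), -0.64 (hexachloroethane), -0.47 (monuron) and -0.50 (tetracycline hydrochloride). Psme2 read -0.53, -0.50, -0.68, -0.51, -0.44 and -0.33 (1,2,3-trichloropropane, 1,2-dichlorobenzene, 1-amino-2-methylanthraquinone, hexachloroethane, monuron, tetracycline hydrochloride), and the dim Psme4 0.32 (1-amino-2-methylanthraquinone), 0.39 (monuron) and 0.54 (tetracycline hydrochloride). The cause was not tested.

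A further 2-fold limit left 0 called genes for each of the 6 compounds. With each compound's own spread tetracycline hydrochloride had 9, and the scanner ratio gave monuron 6 against the other 5. The constitutive subunits alone had medians of 0.53 (hexachloroethane), 0.32 (monuron) and 0.11 (tetracycline hydrochloride), and monuron 0.23 with median centring less the bright genes. Leaving out each rat number in turn gave, against vehicle, 22 to 24 (hexachloroethane), 10 to 14 (1,2,3-trichloropropane), 22 to 25 (1-amino-2-methylanthraquinone), 22 to 23 (monuron), 15 to 17 (1,2-dichlorobenzene) and 9 to 11 (tetracycline hydrochloride). Against the other 5 it gave 20 to 21, 17 to 20, 11 to 17, 1 to 12, 4 to 11 and 7 to 12 in that order, 18 to 20 and 9 to 12 for the same-day pairs, and 0 for the class. Psmb8 under 1-amino-2-methylanthraquinone was 0.20 (limma adjusted p = 0.0546) without rat 1, and Psmb9 there 0.42 (limma adjusted p = 0.029) without rat 3. With the replicate block the counts against vehicle were 24, 18, 25, 24, 18 and 13, and of named calls only Psmc2 under tetracycline hydrochloride was lost (limma adjusted p = 0.0506). The numbers did not pair the rats: same-numbered deviations correlated between -0.266 and 0.390, and 8 of 24 arrays were most like one of their own number. Signal over background limited Psme4 most, and the probe of Psmc1 was well above background on 23 of 24 arrays in each channel.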
